A study of Saccharomyces cerevisiae with 13 samples.

Results

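The Pho85 cyclins are the 10 regulatory partners of Pho85, a cyclin-dependent kinase of budding yeast. The gene family was taken as a whole: the rows of PCL1, PCL2, PCL5, PCL6, PCL7, PCL8, PCL9, PCL10, CLG1 and PHO80, matched by open reading frame name. All 10 had 1 row each, measured on all 13 arrays, among 6137 genes tested. No member was dropped by a filter on low values.

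The cells were W303 with the SSD1-V background, arrested with alpha factor, the pheromone that stops MATa cells in G1, and then released into YEPD, a rich glucose medium. Samples were taken at 0 min and at every 10 min up to 120 min, which the design describes as 2 cell cycles. Each sample was hybridised in Cy5 against cDNA of an asynchronous W303a culture in Cy3, with 1 array per time point and no dye swap. All 13 time points share the strain, the arrest and the kind of reference, and which SSD1 allele the reference carried the sources used here do not give. Since no time point was replicated, each error below is that of a curve fitted through 1 culture. The p-values weigh fitted terms against the scatter of arrays about that curve, not against the variation between cultures.

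A cyclin binds a kinase and directs it to particular substrates, and Pho85 has more such partners than Cdc28, the kinase that drives the cell cycle. By sequence the partners form a Pcl1,2 subfamily (PCL1, PCL2, PCL5, PCL9 and CLG1), several of which are known for work in G1 and at the site of bud growth, and a Pho80 subfamily (PHO80, PCL6, PCL7, PCL8 and PCL10), known for control of phosphate and glycogen metabolism. Pho80 with Pho85 keeps the transcription factor Pho4 out of the nucleus when phosphate is plentiful, and Pcl8 and Pcl10 direct the kinase to glycogen synthase.

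The values are the authors' log ratios per gene, taken as log2 of sample over reference. A value of 1 is then a level double that of the reference, and a value of 0 is the level of the reference, not absence of the transcript. The sources used here give neither the log base nor the direction of the ratio. The labelled dyes make this direction the likely one, and FIG1, a gene induced by pheromone, stood at 4.53 at 0 min and at 0.31 at 120 min. With the opposite sign every log ratio and every difference in level would turn and every peak would shift by 30 min, while intervals between peaks would stay. Between 6178 and 6186 rows were measured per array, with array medians from -0.03 to 0.01, and the standard deviation over rows ranged from 0.242 to 0.387. The lowest correlation between any pair of arrays over all genes was 0.22. The 7 markers of alpha cells and meiosis lay between -0.52 and 0.50 on all arrays. Cultures were measured in bulk, so fewer cells in a phase and less RNA per cell cannot be told apart.

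The family held 2 transcripts of wide range, PCL9 and PCL2. PCL9 was low from 0 to 50 min and highest at 60, 70 and 120 min, and PCL2 was highest at 0 and 70 min. The family also held a pair of small oscillations late in the cycle, PCL7 and PCL10, and 1 transcript that fell over the course, PCL5. The other 5 members had ranges of 0.21 to 0.50 over the 13 arrays. Periodicity was tested with limma, as the moderated F test of a cosine and sine of 60 min beside a linear time term, with p-values adjusted over all genes and a threshold of 0.05. The swing is the fitted distance from trough to peak on the log2 scale. By this test 3 of 10 members were periodic, PCL9, PCL10 and PCL7, against 30.1% of all genes tested. The share in the family was thus that of the genome. When a correlation between neighbouring arrays was estimated, 2 of 10 passed, PCL9 and PCL10, against 14.0% of all genes. The median swing over the 10 members was 0.23, against 0.21 over all genes.

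**Figure D1:**
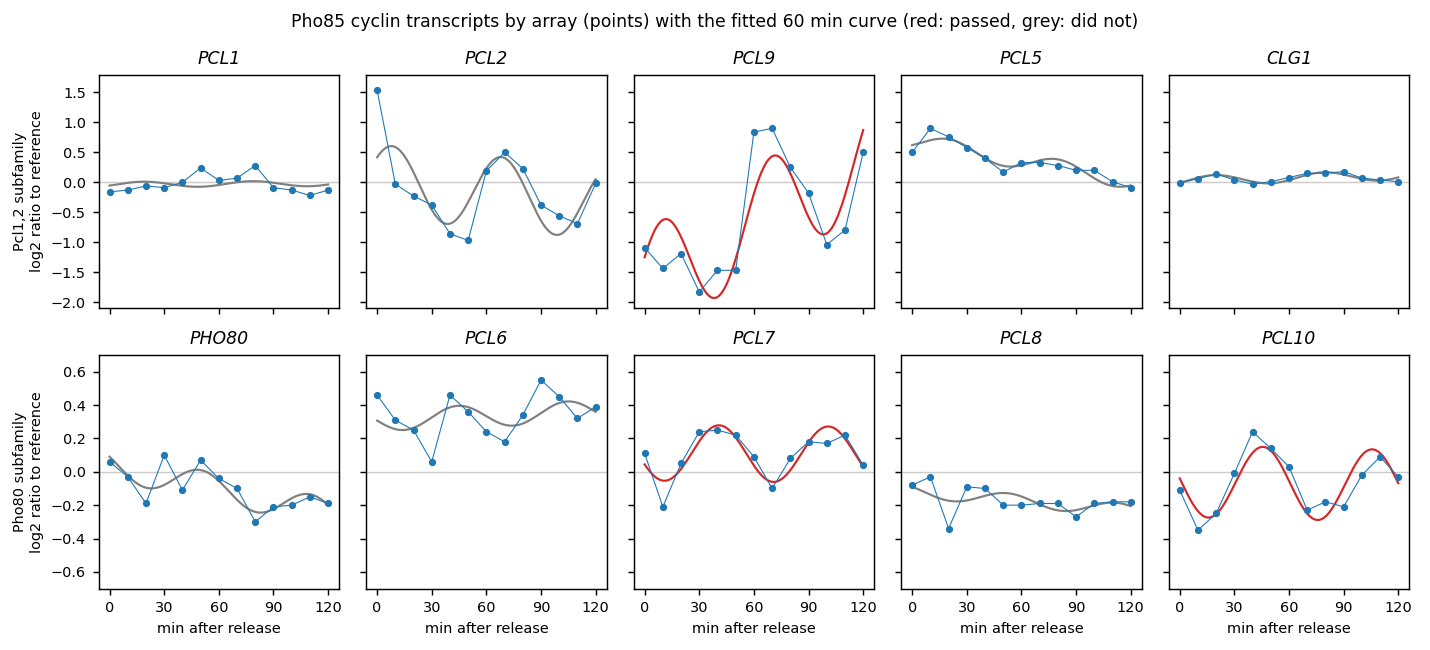
Log2 ratio to the asynchronous reference (y axis) against min after release (x axis) for each Pho85 cyclin transcript, with the Pcl1,2 subfamily in the upper row and the Pho80 subfamily in the lower, whose y axis is narrower. Points are the 13 arrays and smooth lines the fitted 60 min curves, red for PCL9, PCL7 and PCL10, which passed. PCL9 ran from -1.83 to 0.90 and PCL2 from -0.97 to 1.54, while CLG1 stayed between -0.03 and 0.18.

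PCL9 (YDL179W) encodes a cyclin known for expression at the exit from mitosis and in early G1, under the transcription factor Swi5. Its values were -1.09, -1.44, -1.19, -1.83, -1.47 and -1.47 from 0 to 50 min. They were then 0.84, 0.90, 0.25, -0.18, -1.04, -0.80 and 0.50 from 60 to 120 min. All 6 arrays from 0 to 50 min lay below every later array, and the arrays at 60, 70 and 120 min were the highest. The step from 50 to 60 min was 2.31, which ranked 5 from the highest among 6130 genes, and that from 110 to 120 min was 1.30, ranked 3 from the highest among 6131. At 10 and 20 min, when the G1 cyclin gene CLN2 stood at 0.65 and 0.81, PCL9 was low. At 70 and 80 min, when CLN2 stood at 0.40 and 0.68, PCL9 was high.

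The fitted swing of PCL9 was 1.82 ± 0.40 (SE), or 3.53-fold, with a peak at 9.9 ± 2.0 min modulo 60 (adjusted p = 0.014, limma). The error of this peak holds for a period of 60 min and does not cover the choice of period. The fitted peak lay at 14.4 min with a period of 55 min and at 4.7 min with the first longer period tried. With a period of 70 min it lay at 69.0 min, near the end of that period. The residual standard deviation of PCL9 about the 60 min curve was 0.577, wider than the gap between its highest arrays, so the order of 60, 70 and 120 min is not resolved. The call held with an estimated correlation between neighbouring arrays (adjusted p = 0.045) and did not pass without the 70 min array (adjusted p = 0.053). Without the linear time term it did not pass either, with a swing of 1.33 (adjusted p = 0.24), nor did it with an ordinary F test per gene, which does not share its variance with other genes (adjusted p = 0.053).

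The linear term of PCL9 was a rise of 2.13 ± 0.45 over 120 min (adjusted p = 0.031, limma). Of all genes, 1.66% rose by this test. The rise did not pass with an estimated correlation (adjusted p = 0.44) or without any 1 of the 20, 30, 70, 80 and 90 min arrays (adjusted p from 0.057 to 0.078). From 10 to 120 min its mean was -0.58 ± 0.14 (adjusted p = 0.0022, limma). It was the 1 member with a mean at least 0.5 below the reference, as were 1.43% of all genes, and no member was that far above, against 1.50% of all genes. Its size dropped under 0.5 without any 1 of the 10, 30, 40 and 50 min arrays, to between -0.50 and -0.46. PCL5 and PCL6 had the highest means of the family, 0.34 ± 0.03 and 0.33 ± 0.03, both under 0.5. With 1 dye orientation, a constant dye effect and a level against the reference cannot be told apart.

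PCL2 (YDL127W) encodes a cyclin that acts with Pho85 in G1 and in the shaping of the bud. Its values were 1.54, -0.03, -0.23, -0.38, -0.86, -0.97 and 0.19 from 0 to 60 min. They were 0.50, 0.23, -0.38, -0.56, -0.69 and -0.02 from 70 to 120 min. The 0 min array was the highest, followed by that of 70 min, and the lowest arrays were those of 40 and 50 min and of 100 and 110 min, at matching places in each cycle. Between 50 and 60 min the step was 1.16, ranked 23 from the highest of 6130 genes.

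The fitted swing of PCL2 over all 13 arrays was 1.21 ± 0.36 with a peak at 8.3 ± 2.8 min, and it did not pass (adjusted p = 0.056, limma). Without the 0 min array the peak lay at 12.8 min and the gene passed (adjusted p = 3.5e-04). It also passed without the 10 min array (adjusted p = 0.030), without the linear term (adjusted p = 0.040) and at both longer periods tried (adjusted p = 0.015 for the shorter of them, adjusted p = 0.018 for the longer). The fitted peak of PCL2 lay at 4.6 min with the shorter of these periods and at 0.7 min with the longer. With a period of 55 min it lay at 11.6 min, so the error of 2.8 min does not cover the choice of period. Over all arrays with the correlation estimated PCL2 did not pass (adjusted p = 0.22).

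At 0 min, the array of cells under pheromone, PCL2 stood 1.46 above the mean of the 60 and 120 min arrays, which fall at the same place of later cycles only if the period is 60 min. Over all genes, centred per gene, the 0 min array had a correlation of -0.03 with the 60 min array and 0.03 with the 120 min array, against 0.54 between the later pair. A difference of at least 1 upward was met by 1.11% of all genes, and PCL2 ranked 42 from the highest of 6129. PCL9 differed the other way, by -1.76, ranked 12 from the lowest, and 0.881% of all genes were lower by at least 1. The other 8 members differed by -0.11 to 0.38. These differences rest on 1 array and have no test. Among 7 MATa and pheromone genes 6 were higher at 0 min by at least 1, with a median difference of 2.55, and their part in the PCL2 value was not tested. Against the mean of all 12 later arrays PCL9 differed by -0.51 at 0 min, not past the threshold of 1.

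PCL1 (YNL289W) is the closest relative of PCL2 in name and known role, a G1 cyclin of Pho85 whose transcript is known from other cultures to peak in late G1 with the cyclin genes CLN1 and CLN2. Here its values were -0.16, -0.13, -0.06, -0.09, 0, 0.24 and 0.03 from 0 to 60 min, and 0.07, 0.28, -0.09, -0.13, -0.22 and -0.13 from 70 to 120 min. The highest arrays were those of 50 and 80 min, at different places of the first and the second cycle. Its swing was 0.09 ± 0.13 (adjusted p = 0.84, limma), with a range of 0.50 in all. In the same hybridisations CLN2 reached 0.81 at 20 min and 0.68 at 80 min and had a swing of 2.18 ± 0.30.

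PCL1 did not pass without any 1 array (adjusted p from 0.25 to 0.98). Its correlation with PCL2 over the 13 arrays was -0.09 (Spearman 0.05). The probe behind the row is not described in the sources used here.

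PCL5 (YHR071W) encodes the cyclin that directs Pho85 to Gcn4, the activator of amino acid synthesis genes, for its breakdown. Its values were 0.50, 0.90, 0.76, 0.58, 0.40, 0.17 and 0.33 from 0 to 60 min, and 0.33, 0.28, 0.20, 0.20, 0.01 and -0.09 from 70 to 120 min. Each array of the second cycle stood below the array 60 min before it, with differences from -0.57 to -0.16. PCL5 fell by 0.67 ± 0.10 over 120 min (linear term -0.67, adjusted p = 0.0072, limma), as did 1.17% of all genes in this direction. The call held without any 1 of the 13 arrays (adjusted p from 0.0046 to 0.032) and did not pass with an estimated correlation (adjusted p = 0.31), where 0.0653% of all genes and 0 of 10 members passed, and 6.96% of all genes had an unadjusted p under 0.05 by limma. Its swing was 0.28 ± 0.09 (adjusted p = 0.073). GCN4 itself ranged from -0.22 to 0.03, with a linear term of -0.15 ± 0.07 (adjusted p = 0.27).

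CLG1 (YGL215W), a cyclin-like partner of Pho85 less studied than the others, had the narrowest range of the family, from -0.03 to 0.18. Its standard deviation over arrays was 0.0679, lower than in all but 3.75% of genes. Its swing was 0.16 ± 0.06 with a peak at 19.3 ± 3.0 min (adjusted p = 0.096, limma). The highest values of each cycle were 0.14 at 20 min and 0.18 at 90 min, and the lowest of all was that of 40 min. With the ordinary F test per gene, under which PCL9 lost its call, it passed (adjusted p = 0.027).

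In the Pho80 subfamily the changes were small. PCL10 (YGL134W), a partner that targets glycogen synthase, had values of -0.11, -0.35, -0.25, -0.01, 0.24, 0.14 and 0.03 from 0 to 60 min, and -0.23, -0.18, -0.21, -0.02, 0.09 and -0.03 from 70 to 120 min. It was high at 40 and 50 min and again at 110 min, and lowest at 10 and 20 min and from 70 to 90 min. Its swing was 0.43 ± 0.08, or 1.35-fold, with a peak at 45.7 ± 1.7 min (adjusted p = 0.0070, limma). The call held without any 1 array (adjusted p from 0.0053 to 0.028) and with an estimated correlation (adjusted p = 0.025).

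PCL7 (YIL050W), a partner known for glycogen control with PCL6, had values of 0.11, -0.21, 0.05, 0.24, 0.25, 0.22 and 0.09 from 0 to 60 min, and -0.10, 0.08, 0.18, 0.17, 0.22 and 0.04 from 70 to 120 min. The lowest array of each cycle was its first, at 10 and at 70 min, and the values from 30 to 50 min and from 90 to 110 min formed a plateau between 0.17 and 0.25. Its swing was 0.34 ± 0.07, or 1.26-fold, with a peak at 40.8 ± 1.9 min (adjusted p = 0.012, limma). It passed without any 1 array (adjusted p from 0.0094 to 0.043) and did not pass with an estimated correlation (adjusted p = 0.059). PCL7 and PCL10 had the highest correlation of the 45 pairs of members, 0.77 over the 13 arrays (Spearman 0.80), and the median over pairs was -0.07. The arrays share 1 culture and 1 kind of reference, so these correlations are descriptions.

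PHO80 (YOL001W), the cyclin of the phosphate pathway, ranged from -0.30 at 80 min to 0.10 at 30 min. Every array of its second cycle stood below the matching array of the first, with differences from -0.31 to -0.07, and its linear term of -0.29 ± 0.08 did not pass (adjusted p = 0.077, limma). PCL8 (YPL219W), the other glycogen synthase partner, ranged from -0.34 at 20 min to -0.03 at 10 min, on neighbouring arrays, and its standard deviation of 0.0822 was lower than in all but 10.3% of genes. PCL6 (YER059W), known with PCL7 to act on the phosphatase regulator Glc8, lay above the reference on every array, from 0.06 at 30 min to 0.55 at 90 min. None of the swings of PHO80, PCL6 and PCL8, at 0.18, 0.13 and 0.08, passed (adjusted p = 0.18, adjusted p = 0.61 and adjusted p = 0.66). Without the 30 min array PHO80 passed, with a swing of 0.22 (adjusted p = 0.036). The median range over arrays was 0.46 in the Pho80 subfamily, 0.99 in the Pcl1,2 subfamily and 0.45 over all genes; the subfamilies overlapped, since CLG1 had the smallest range of all.

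**Figure D2:**
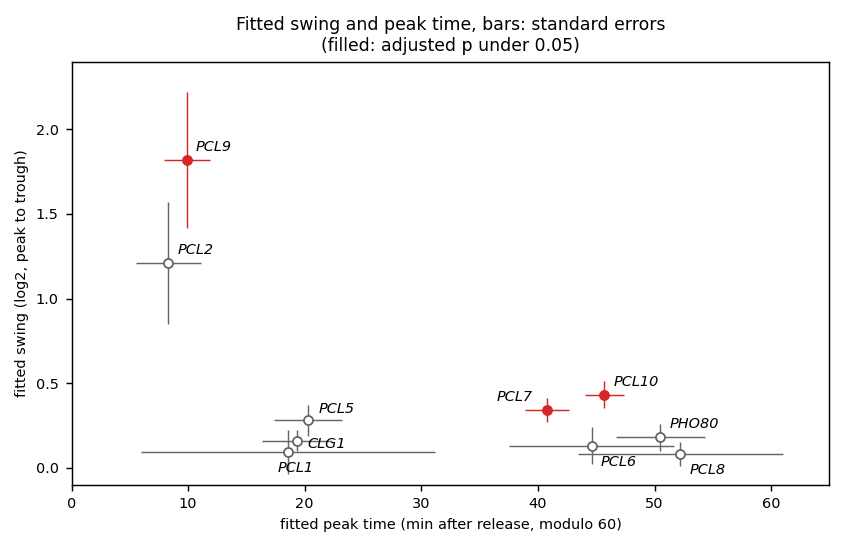
Fitted swing on the log2 scale (y axis) against fitted peak time in min after release, modulo 60 (x axis), with bars of 1 standard error and filled points for members that passed. PCL9 and PCL2 lie at 9.9 and 8.3 min with swings above 1, PCL7 and PCL10 at 40.8 and 45.7 min with swings under 0.5.

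Among the members called periodic, the fitted peak of PCL9 lay far from those of PCL7 and PCL10. PCL9 peaked 24.2 ± 2.9 min after PCL10 and 29.1 ± 3.0 min after PCL7, with errors from a jackknife over arrays. PCL10 peaked 4.9 ± 2.3 min after PCL7, just beyond 2 errors. PCL9 and PCL2 differed by 1.7 ± 5.0 min, which is within the error. The values themselves were less clearly opposed. Over all arrays the correlation of PCL9 was -0.34 with PCL7 (Spearman -0.54) and -0.21 with PCL10 (Spearman -0.27). From 10 to 120 min these were -0.35 and -0.23. For PCL2, which had not passed as periodic, the correlation from 10 to 120 min was 0.75 with PCL9 and -0.73 with PCL7. Over all arrays those of PCL2 were weaker, at 0.37 (Spearman 0.59) with PCL9 and -0.47 (Spearman -0.71) with PCL7.

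Against genes of known timing, PCL9 peaked before CLN2, a late G1 cyclin gene (-9.5 ± 3.2 min). Its differences from SIC1 (-0.2 ± 1.1 min) and ASH1 (1.3 ± 1.4 min), both early G1 genes whose products are Pho85 substrates, were within the error. It peaked 24.8 ± 4.1 min after SWI5. The fitted peak of PCL2 lay before that of CLN2 as well (-11.2 ± 5.2 min), just beyond 2 errors. PCL2 had not passed as periodic, and its peak lay at 8.3 min with the 0 min array and at 12.8 min without it. PCL10 peaked within the error of CLB2, the mitotic cyclin gene (0.5 ± 1.8 min), and the difference of PCL7 from CLB2, -4.4 ± 3.3 min, was within 2 errors.

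**Figure D3:**
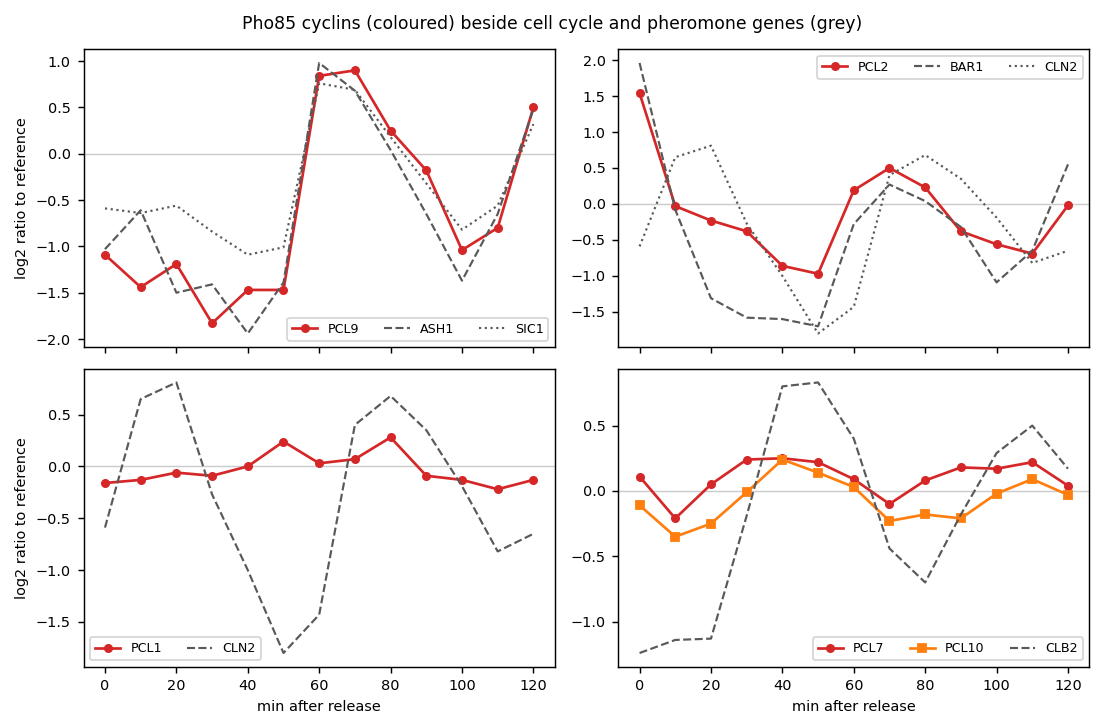
Log2 ratio to the reference (y axis) against min after release (x axis) for PCL9 beside ASH1 and SIC1, PCL2 beside BAR1 and CLN2, PCL1 beside CLN2, and PCL7 and PCL10 beside CLB2, with members in colour. ASH1 and PCL9 stood at 0.98 and 0.84 at 60 min, and the fitted swing was 2.18 for CLN2 and 0.09 for PCL1.

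The genes most like each periodic member over the 13 arrays were taken by Pearson correlation among 6111 genes outside the family. For PCL9 they were AIM44 (0.98, Spearman 0.93), DSE3 (0.97, Spearman 0.94) and CYK3 (0.97, Spearman 0.91). AIM44 lay between -1.65 and -1.29 from 0 to 50 min and stood at 1.14 at 60 min. For PCL7 the nearest were SPR6, TIM18 and CTK2 (0.95, 0.94 and 0.94), and for PCL10 they were MLP2, ORC4 and KIP2 (0.95, 0.95 and 0.94). These are the highest of 6111 correlations each and carry no test. On the chromosomes, no member overlaps a neighbouring coding gene in RefSeq R64, and the highest correlations with a neighbour were 0.71 for PHO80 with RRP6, 0.70 for PCL9 with AIT1 and 0.66 for PCL10 with ITC1.

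The second cycle allows each profile to be checked against itself. For PCL7 the values from 10 to 60 min and from 70 to 120 min had a correlation of 0.96 (Spearman 0.71) over 6 pairs of arrays. It was 0.86 for PCL5 (Spearman 0.93), 0.82 for PCL2 (Spearman 0.83) and 0.79 for PCL10 (Spearman 0.89), so the order depends on the measure. PCL5 fell over most of both windows and its swing had not passed (adjusted p = 0.073, limma), so its 0.86 need not mark a repeated oscillation. For PCL9 the correlation was 0.40 (Spearman 0.64), with second-cycle minus first-cycle differences from -0.34 to 2.34, and for PCL1 -0.62 (Spearman -0.81). The mean of PCL9 moved from -1.09 to -0.06 between the cycles, and its fitted swings were 1.71 and 1.88. The log2 ratio of those swings, second over first, was 0.14 on all arrays and 2.61 without the 60 min array, so it rests on that array.

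Limma's test of a change in the oscillation between the cycles called 0 of 10 members, against 0.570% of all genes. At an unadjusted p under 0.05 it called 1 member, PCL1, against 15.2% of all genes; its first cycle had a fitted swing of 0.28 peaking at 49.8 min and its second one of 0.42 peaking at 17.9 min (adjusted p = 0.12). With an estimated correlation 0 genes were called, while 2.47% of all genes and 0 members had an unadjusted p under 0.05. Without the 60 min array PCL9 passed (adjusted p = 0.038); that array holds its highest value of the first cycle, and without it 3.83% of all genes passed. A second rise within each cycle was tested by adding terms of 30 min: 0 members and 0 of 6137 genes passed, with 4.73% of all genes and 0 members at an unadjusted p under 0.05 by limma.

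**Figure D4:**
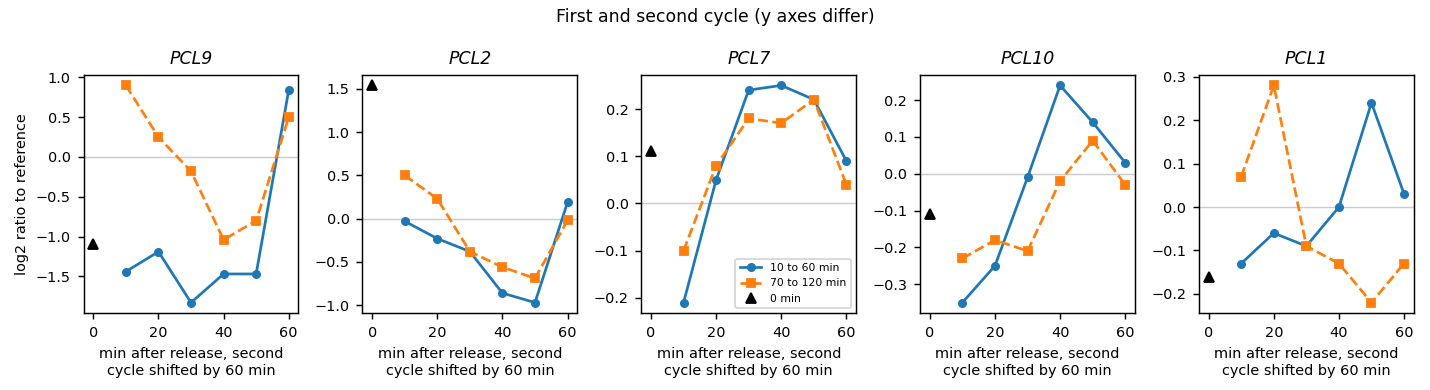
Log2 ratio to the reference (y axis, a separate scale per panel) against min after release, with the second cycle shifted by 60 min (x axis), for PCL9, PCL2, PCL7, PCL10 and PCL1. Circles are arrays from 10 to 60 min, squares those from 70 to 120 min and the triangle is 0 min. The PCL9 arrays at 10 and 70 min were -1.44 and 0.90, and the PCL1 maxima fell at 50 and 80 min.

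The kinase itself and its inhibitor had narrower ranges than PCL9 and PCL2. PHO85 (YPL031C) ranged from -0.16 at 30 min to 0.26 at 120 min, and its swing of 0.23 ± 0.07 did not pass (adjusted p = 0.067, limma). PHO81, the inhibitor of Pho80 with Pho85, swung by 0.31 ± 0.08 around a peak at 57.2 ± 2.6 min (adjusted p = 0.022, limma). With an estimated correlation it did not pass (adjusted p = 0.11). PHO4, the transcription factor under Pho80 control, had a fitted swing of 0.16 ± 0.08, which did not pass (adjusted p = 0.24).

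In a list of the kinase, its inhibitor and 13 reported substrates, 6 of 15 genes were periodic (40.0%), against 30.1% of all genes, and 5 with an estimated correlation, where 14.0% of all genes passed. The largest swings were 2.10 ± 0.33 for ASH1, the repressor of mating type switching in daughter cells, 1.41 ± 0.26 for the S phase inhibitor SIC1 and 1.26 ± 0.17 for BNI4, a scaffold of the bud neck. BNI4 peaked at 16.5 ± 1.1 min. Among 14 target genes of Pho4, 3 were periodic (21.4%), below the 30.1% of all genes: the phosphatase genes PHO5 (0.94 ± 0.25), PHM8 (0.66 ± 0.08) and PHO8 (0.52 ± 0.07). PHO5 lost its call when the correlation was estimated (adjusted p = 0.055). PHO5 and PHM8 peaked at 57.8 and 54.7 min, late in the cycle, and PHO8 at 21.3 min.

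Among 8 genes of glycogen metabolism 3 were periodic (37.5%), near the 30.1% of all genes. GSY1, a glycogen synthase gene, swung by 0.90 ± 0.13 around 2.4 ± 1.5 min, GLG2, a glycogen primer gene, 0.47 ± 0.07 and 42.2 ± 1.3 min, and GLC3, the branching enzyme gene, 0.38 ± 0.10 and 0.1 ± 2.9 min (adjusted p = 0.11 with an estimated correlation). GSY2, the synthase that Pcl8 and Pcl10 are known to target, did not pass (0.24 ± 0.09, adjusted p = 0.11, limma). GLG2 was the 1 periodic gene of the list that peaked within 5 min of PCL7 and PCL10.

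Of 8 cell cycle transcription factors 6 were periodic (75.0%, against 30.1% of all genes), and 3 with an estimated correlation. They included the repressors YOX1 (1.56 ± 0.40) and YHP1 (1.21 ± 0.29). With an estimated correlation neither YOX1 (adjusted p = 0.11) nor YHP1 (adjusted p = 0.13) passed. SWI5 swung by 1.05 ± 0.28 around 45.1 ± 2.3 min (adjusted p = 0.038, limma), and did not pass with an estimated correlation (adjusted p = 0.070). At 0 min SWI5 stood at -1.16, beside -1.09 for PCL9. At 40 and 50 min, before the step of PCL9, SWI5 stood at 0.54 and 0.55, and PCL9 at -1.47 on both arrays. Whether SWI5 bears on the values of PCL9 was not tested.

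The cyclins of Cdc28 oscillated more widely than most Pho85 cyclins. Of 9 such genes 8 were periodic (88.9%, against 30.1% of all genes), and 6 with an estimated correlation, with a median swing of 1.29 over the 9 against 0.23 over the Pho85 cyclins; the difference between the families was not tested. CLN2, CLB6 and CLN1 led with 2.18 ± 0.30, 2.06 ± 0.44 and 1.66 ± 0.29, and the swing of PCL9 lay between those of CLN1 and CLB6. Of 7 MATa and pheromone genes 3 were periodic (42.9%, against 30.1% of all genes), BAR1 (2.01 ± 0.57), STE2 (1.84 ± 0.34) and MFA2 (1.69 ± 0.28). BAR1 lost its call when that correlation was estimated (adjusted p = 0.12). By Pearson correlation the 3 genes most like PCL2 were HXT9 (0.915, Spearman 0.852), BAR1, the pheromone protease (0.895, Spearman 0.88), and WTM1 (0.892, Spearman 0.861). HXT9 and WTM1 are not in the list of MATa and pheromone genes. PCL2 had not passed as periodic, so this comparison was added with its values in view. Of the 7 markers of alpha cells and meiosis 1 was periodic (14.3%, against 30.1% of all genes), STE3 (0.23 ± 0.07, adjusted p = 0.16 with an estimated correlation).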

How the data were processed

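Total RNA of 13 samples was compared with 1 kind of reference on 2-colour arrays. The authors deposited 1 log ratio for each open reading frame and array, read here as log2. Of the scanner, background correction and normalization nothing is given in the sources used here. Values were used as deposited. Of 6295 rows, 108 were empty on every array. RefSeq R64 named 5768 rows by locus tag and 49 by synonym, 458 kept their own name, 20 had no readable name and stayed out, and rows of 27 genes were averaged. Genes on at least 10 arrays were tested (6137) with limma 3.58.1 in R 4.3.3, with Benjamini-Hochberg adjustment over all genes. Swings and peaks carry standard errors of the fit, with a jackknife over arrays for peak differences. Correlation between neighbouring arrays was estimated over all genes (0.44 in the periodicity fit). Fits were tested on simulated data with noise independent between arrays, so false calls under a correlation between neighbouring arrays were not tested. The number of arrays limits the precision, and signal over background and spot quality are unknown.

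The family and the lists were chosen with earlier results of these data known, and p-values over the lists are not given. Named genes were all members, the 3 genes most like each periodic member and the 3 periodic genes of largest swing per list. PHO85, PHO81, PHO4 and SWI5 were named in any case. GCN4, GSY2, CLB2, HXT9, WTM1 and neighbouring genes were added with values in view. A further listed factor was not analysed here, and 1 gene that the rule names is not reported here. Alternatives were left-out arrays, array centring, other periods, no linear term, other variance models and other baselines for 0 min. Matplotlib 3.10.9 (Python 3.11.15) drew the plots.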

Additional observations from a re-analysis of the deposited data

How the results depend on the processing

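The count of periodic members was 3, and 1, PCL7, at a period of 55 min. Of all genes 1847 were called at 60 min and 1913 at the first longer period tried. At a period of 70 min PCL7 did not pass (adjusted p = 0.083, limma). The count ranged from 2 to 5 when single arrays were left out, with 2 without 70 min and 5 without 10 min, where PCL5 and PCL2 joined. Of all genes 21.7% passed without 70 min and 26.1% without 10 min. With an estimated correlation it was 2, and the count over all genes was 859; at a period of 55 min that count was 950, and without the 40 min array 1187. The count of members with a linear change was 2, 0 with an estimated correlation, and 1 to 2 with single arrays left out. The shares of all genes were 2.84%, 0.0653%, and 1.11% to 3.78%. The count of members that changed between cycles was 0, and 0 to 1 with single arrays left out, against 0.570% and 0.0489% to 3.83% of all genes. The count of members at least 0.5 from the reference was 1, 0 at a threshold of 1, and 0 to 1 with single arrays left out. Of all genes 2.93%, 0.228%, and 2.8% to 3.08% were that far from it. At 0 min 2 members were past 1, and 1 against the mean of all later arrays, beside 1.99% and 2.1% of all genes. The causes were not tested. The count of members with a 30 min term stayed at 0 under all 15 alternatives tried. Over single members 654 values kept their side of the threshold or moved by less than 1 residual standard deviation, 19 lost a call, 9 gained one and 4 untested differences at 0 min moved by more. A further 14 linear terms over 120 min changed sign, none of them called. With single arrays left out they ranged from -0.081 to 0.096 for PCL1, from -0.593 to 0.483 for PCL2, from -0.031 to 0.168 for PCL6, from -0.072 to 0.036 for PCL7 and from -0.083 to 0.019 for PCL10, which was 0.008 with an estimated correlation. That of PCL2 was -0.37 on all arrays and changed sign without the 0 min array. The F test between cycles has no direction, and 27 uncalled swing ratios, second over first, changed sign, such as that of PCL8 from 0.65 to -1.89 without 10 min. Centring arrays on the median changed no call of a member. No paired analysis was possible because each time point has 1 array, with no replicate numbers to pair; the pairs 60 min apart within the culture are given as values.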
